A study of Homo sapiens with 16 samples.

Results

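The zinc finger genes described here are the 227 protein-coding genes on chromosomes 1 to 18 and 20 to 22 whose symbol is ZNF followed only by digits, of 17675 protein-coding genes on the same chromosomes and 19974 on chromosomes 1 to 22 and X. Each gene was taken as its RefSeq body on hg38 with 1 kb added at both ends, and the members were chosen by symbol and chromosome without any measured value. ZNF names are given to genes for zinc finger proteins, and many of these proteins carry arrays of C2H2 fingers that bind DNA. A large share of them also carry a KRAB domain, which recruits the corepressor TRIM28. TRIM28 in turn brings SETDB1, the enzyme that trimethylates lysine 9 of histone H3, and the resulting mark, H3K9me3, is bound by heterochromatin proteins. ZNF genes are themselves known targets of this pathway, with H3K9me3 described over the exons that encode the fingers near their 3′ ends. ARID1A belongs to the SWI/SNF complexes, which remodel chromatin.

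ChIP-seq data came from HCT116, a human colon cancer cell line, in 3 cell states: shARID1A cells, in which a short hairpin RNA is directed at ARID1A, shCtrl cells with a control hairpin, and cells for which no hairpin is named, called unmodified below. In shARID1A cells H3K9me3, TRIM28 and SETDB1 were precipitated, in shCtrl cells these and ARID1A, and in unmodified cells H3K9me3, TRIM28 and ARID1A. The 10 libraries were each called by the authors against input and against IgG, which gave 20 peak lists, and ARID1A precipitation in shARID1A cells was not analysed here. The labels give neither the hairpin's sequence nor the number of clones nor the level of ARID1A left, and peak lists alone cannot show the knockdown. Each cell state and antibody had 1 library, so no difference between cell states below has a replicate check and none was tested. Intervals are exact Clopper-Pearson 95% intervals over genes or peaks and cover counting error only, and genes are not replicates.

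Against input the lists held 11374 peaks for unmodified H3K9me3 at the lowest and 203714 for shARID1A TRIM28 at the highest, at a median width of 218 to 345 bp. Sequencing depth is not stated. From the deposited fold and p of peaks in the zinc finger genes, the median summit held 5 to 13 fragments. In shARID1A cells the H3K9me3, TRIM28 and SETDB1 libraries had been scaled by 0.96, 1.0 and 0.97. In shCtrl cells they had been scaled by 0.75, 0.77 and 0.74, so peaks of these states were called at unlike scaling. The commonest background of these libraries, in fragments, was 1.2, 1.12 and 1.19 in shARID1A cells and 1.23, 1.16 and 1.28 in shCtrl cells. In unmodified cells it was 3.68, 2.91 and 3.09 for H3K9me3, TRIM28 and ARID1A, at scales of 0.58, 0.74 and 0.68. A peak with a deposited q of at most 0.05 is called strong below, and most listed peaks were not strong. The library labelled shCtrl H3K9me3 stood apart from its label. Over the zinc finger genes it had a peak at 26.8% of the 153 unmodified ARID1A peaks but at 3.36% of the 119 unmodified H3K9me3 peaks. Over all genes these shares were 29.4% and 6.18%. Results for shCtrl H3K9me3 are therefore also given with unmodified cells in its place. The library labelled shCtrl SETDB1 shared more of its peaks in the zinc finger genes with shARID1A H3K9me3 (28.7%) than with shARID1A SETDB1 (14.1%), lists of unequal length, and no other SETDB1 library of a control state was analysed.

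Among the zinc finger genes, 82 lay in 15 clusters of at least 3 neighbours within 200 kb of each other, 28 lay in pairs and 117 were solitary. Gene bodies ranged between 966 and 467802 bp with a median of 23535 bp, against 26262 bp over all genes. The extended bodies together covered 10.5 Mb, against 1205 Mb for all genes. The windows of 74 zinc finger genes met the body of another protein-coding gene and those of 19 met another member, and a peak there was counted for each gene. Paralogous ZNF genes share near-identical stretches, and how reads that map to several places were treated is not given in the sources used here, so peaks in them are uncertain to that extent.

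Promoter sequences are shown first because the zinc finger promoters with a peak differed by base content between libraries. RefSeq promoters (GRCh38.p14, 250 bases before to 50 after the annotated start) were given for 188 of the 227 genes, and they held a median of 24 CpG dinucleotides, against 22 over all 13916 promoters. ZNF670 (chr1:247078762-247079061, minus strand, 15 CpG) and ZNF25 (chr10:37976598-37976897, minus strand, 19 CpG) were taken, by shCtrl SETDB1 fold, from 3 CpG-poor promoters with strong peaks of both shARID1A H3K9me3 and shCtrl SETDB1. As many CpG-rich promoters, ZNF2, ZNF326 and ZNF609, held strong peaks of both as well. ZNF32 (chr10:43648832-43649131, minus strand, 36 CpG) and ZNF48 (chr16:30378062-30378361, plus strand, 29 CpG) were taken as CpG-rich promoters with a strong shARID1A SETDB1 peak and no shCtrl SETDB1 peak against input. Each is written 5′ to 3′ on the gene's strand, with CpG in capitals.
ZNF670: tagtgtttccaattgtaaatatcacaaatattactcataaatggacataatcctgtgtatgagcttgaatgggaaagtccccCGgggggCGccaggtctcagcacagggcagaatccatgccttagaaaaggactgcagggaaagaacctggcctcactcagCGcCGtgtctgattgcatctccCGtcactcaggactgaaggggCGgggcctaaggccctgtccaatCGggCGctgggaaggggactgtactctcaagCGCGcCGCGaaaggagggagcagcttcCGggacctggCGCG
ZNF25: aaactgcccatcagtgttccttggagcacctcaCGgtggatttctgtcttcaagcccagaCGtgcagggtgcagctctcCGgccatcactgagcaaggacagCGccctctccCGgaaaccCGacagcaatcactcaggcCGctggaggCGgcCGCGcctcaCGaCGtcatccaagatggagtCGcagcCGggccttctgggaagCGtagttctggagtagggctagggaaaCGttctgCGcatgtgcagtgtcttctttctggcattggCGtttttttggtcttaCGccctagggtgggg
ZNF32: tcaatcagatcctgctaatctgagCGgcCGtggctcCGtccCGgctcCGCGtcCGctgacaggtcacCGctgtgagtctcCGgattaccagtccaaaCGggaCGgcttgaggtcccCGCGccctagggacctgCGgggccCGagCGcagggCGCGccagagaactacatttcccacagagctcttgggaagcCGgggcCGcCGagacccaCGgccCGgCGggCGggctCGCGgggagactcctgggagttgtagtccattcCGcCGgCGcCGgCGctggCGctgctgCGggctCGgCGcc
ZNF48: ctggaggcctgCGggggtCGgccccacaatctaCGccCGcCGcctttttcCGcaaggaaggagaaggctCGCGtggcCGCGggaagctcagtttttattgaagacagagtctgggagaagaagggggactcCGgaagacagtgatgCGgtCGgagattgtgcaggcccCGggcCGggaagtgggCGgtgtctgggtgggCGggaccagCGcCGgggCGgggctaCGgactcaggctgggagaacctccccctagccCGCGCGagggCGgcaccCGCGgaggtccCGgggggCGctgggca

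In ZNF670 the promoter had a deposited fold over input of 13.0 in shARID1A H3K9me3, 3.02 in shARID1A TRIM28, 4.14 in shARID1A SETDB1 and 9.01 in shCtrl SETDB1. The other 6 libraries had no peak there against input. The wider site that spans this promoter (chr1:247078552-247079828) held peaks in 8 IgG lists. The ZNF25 promoter had 4.08 in shARID1A H3K9me3, 3.07 in shARID1A SETDB1 and 6.34 in shCtrl SETDB1. The peaks by which these promoters were chosen are a description. The ZNF32 promoter had a single input peak, at 6.76 in shARID1A SETDB1, and the ZNF48 promoter had 4.96 in that library, 2.82 in shARID1A TRIM28 and 3.05 in shCtrl ARID1A. Fold here is the authors' pileup at the summit over the local background, and it is used to describe peaks within a list.

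Taken by CpG number, 63 zinc finger promoters held under 20 CpG and 125 held 20 or more. Among the CpG-poor ones, 12 (19%) had a shARID1A H3K9me3 peak, against 5.73% of the 6001 CpG-poor promoters of all genes. Among the CpG-rich ones, 12 (9.6%) had one, against 10.1% of 7915. In the IgG list these shares were 47.6% against 26.5% for CpG-poor and 44% against 42.2% for CpG-rich promoters, so that shARID1A H3K9me3 stood further above all genes at CpG-poor promoters in both lists. The shCtrl SETDB1 list showed the same order, with 31.7% of CpG-poor zinc finger promoters against 18.4% of all CpG-poor ones, and 20.8% against 17.1% for CpG-rich ones. For shARID1A SETDB1 the CpG-rich zinc finger promoters were the more often marked, at 24% against 17.6% of all CpG-rich promoters, while CpG-poor ones stood at 6.35% against 2.37%. shARID1A TRIM28 was likewise at 26.4% of CpG-rich zinc finger promoters against 21.8%, and at 6.35% of CpG-poor ones against 4.58%. In the IgG lists CpG-poor zinc finger promoters were above all CpG-poor ones for these as well, at 42.9% against 20.1% for shARID1A SETDB1 and 33.3% against 18% for shARID1A TRIM28, with CpG-rich ones at 70.4% against 59.6% and 56% against 49.7%. Over all CpG numbers the promoter counts were 24 of 188 for shARID1A H3K9me3 (background 8.23%), 37 for shARID1A TRIM28 (background 14.4%), 34 for shARID1A SETDB1 (background 11%), 46 for shCtrl SETDB1 (background 17.7%) and 23 for shCtrl ARID1A (background 10.5%). The remaining 5 libraries had a peak at few zinc finger promoters, namely 2 for the library labelled shCtrl H3K9me3 (background 1.77%), 0 for shCtrl TRIM28 (background 0.632%), 1 for unmodified H3K9me3 (background 0.187%), 2 for unmodified TRIM28 (background 0.841%) and 5 for unmodified ARID1A (background 1.19%).

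**Figure D1:**
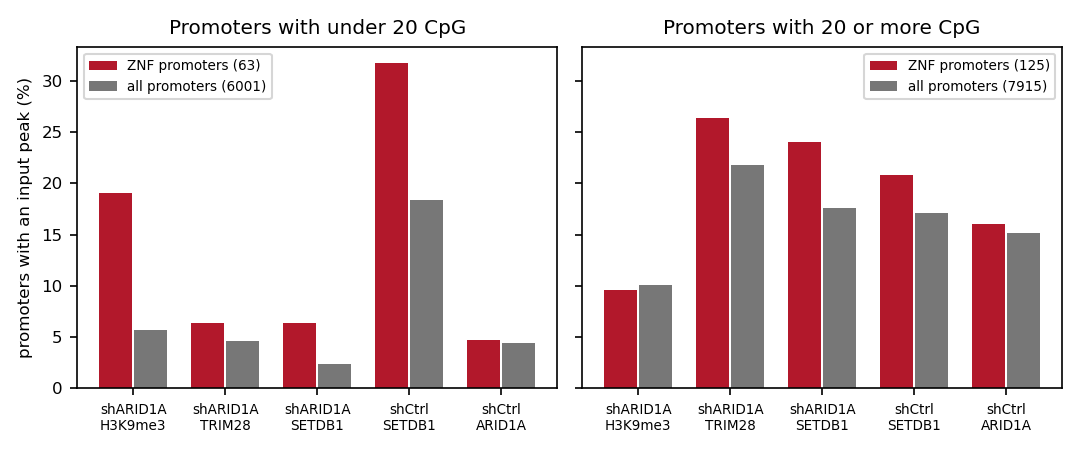
Share of promoters (%) with a peak called against input, for promoters of under 20 CpG (left) and of 20 or more (right), zinc finger genes in red and all protein-coding genes in grey. CpG-poor zinc finger promoters stand highest for shCtrl SETDB1 (31.7%) and shARID1A H3K9me3 (19%), and CpG-rich ones for shARID1A TRIM28 (26.4%) and shARID1A SETDB1 (24%).

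Short motifs were counted in the same 300 bases on both strands. The ETS site CTTCCGG occurred in 37.8% of the zinc finger promoters and in 14% of all promoters. The NRF1 core CATGCGC was in 11.2% against 5.68%, the cyclic AMP response element TGACGTC in 8.51% against 4.48%, and ACTACAA, a core of the ZNF143 site, in 5.32% against 3.2%. The GC box GGGCGG was about as common in both, at 60.1% against 58.2%. None of these motifs contains another, matches may overlap at their ends, and a match describes the letters only. ZNF670 and ZNF48 hold both a GC box and an ETS site, ZNF25 a cyclic AMP response element and an NRF1 core, and ZNF32 a GC box and the ZNF143 core.

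Across the gene bodies, TRIM28, SETDB1 and H3K9me3 peaks were listed in a larger share of the zinc finger genes than of all genes in shARID1A cells, as were SETDB1 peaks in shCtrl cells and H3K9me3 peaks in unmodified cells. In shARID1A cells a TRIM28 peak was listed in 205 of 227 zinc finger genes (90.3%, interval 85.7 to 93.8%), against 74.3% of all genes. An H3K9me3 peak was listed in 142 (62.6%, interval 55.9 to 68.9%), against 49.1%, and a SETDB1 peak in 128 (56.4%, interval 49.7 to 62.9%), against 46.2%. These intervals lay above the share of all genes. In unmodified cells 55 zinc finger genes (24.2%, interval 18.8 to 30.3%) held an H3K9me3 peak, against 15.1% of all genes, while TRIM28 was listed in 79 (34.8%) against 31.3% and ARID1A in 59 (26.0%) against 28.5%. In shCtrl cells SETDB1 was listed in 156 (68.7%, interval 62.3 to 74.7%) against 60.9%, an interval that also lay above all genes, TRIM28 in 107 (47.1%) against 44.3%, ARID1A in 128 (56.4%) against 56.7%, and the library labelled H3K9me3 in 103 (45.4%, interval 38.8 to 52.1%) against 50.9%. With only those input peaks that an IgG peak of the same library overlapped, shARID1A SETDB1 was in 113 (49.8%, interval 43.1 to 56.5%) against 43.2%, an interval that no longer lay above all genes. On that basis shARID1A TRIM28 was in 195 (85.9%) against 68.1%, shARID1A H3K9me3 in 128 (56.4%) against 46.7%, shCtrl SETDB1 in 149 (65.6%) against 57.9%, unmodified H3K9me3 in 34 (15%) against 7.04% and unmodified TRIM28 in 60 (26.4%, interval 20.8 to 32.7%) against 18.4%.

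Gene length bears on such counts: the zinc finger genes with peaks in 7 to 10 of the 10 input lists had a median length of 43183 bp, those with peaks in 0 to 3 lists 14305 bp. Among genes of 10 to 50 kb, the contrast for unmodified H3K9me3 was larger, with 30 of 142 zinc finger genes (21.1%) against 7.78% of all genes of that length, and unmodified TRIM28 stood at 31.7% against 21.7%. Counted as peaks per Mb of gene window, the zinc finger genes had 11.3 against 4.01 for unmodified H3K9me3, 19.8 against 12.1 for unmodified TRIM28, 37.6 against 19.3 for shARID1A H3K9me3, 125 against 71.4 for shARID1A TRIM28 and 25.5 against 15.5 for shARID1A SETDB1. ARID1A peaks were about as dense in the zinc finger genes as in all genes, at 44.8 against 48.4 per Mb in shCtrl cells and 14.6 against 14 in unmodified cells. The shCtrl H3K9me3 density was 36.0 against 38.9 per Mb.

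**Figure D2:**
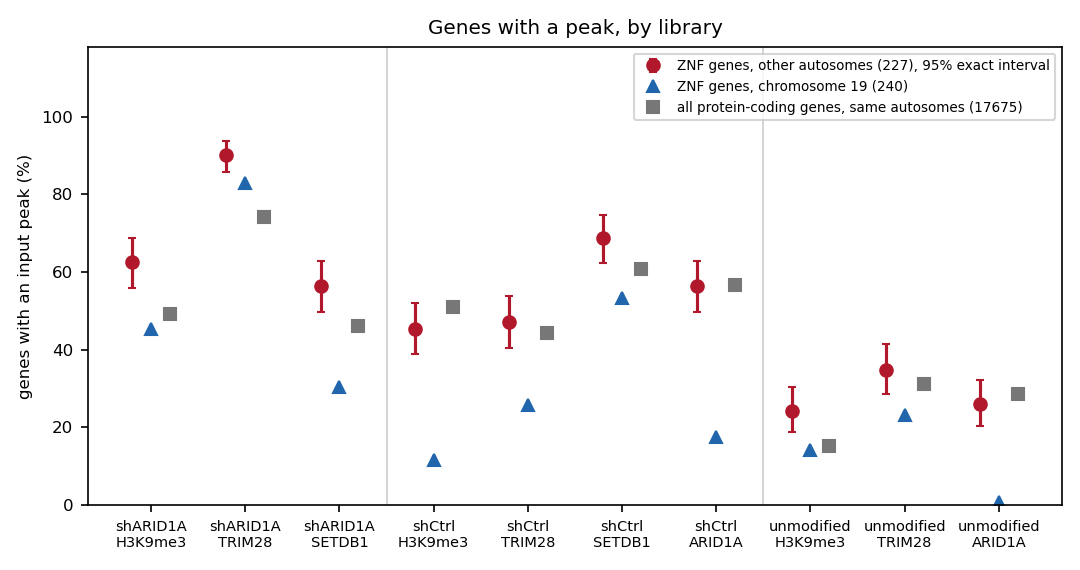
Share of genes (%) with at least 1 peak called against input in each of the 10 libraries, for the 227 zinc finger genes with 95% exact intervals (circles), the 240 zinc finger genes of chromosome 19 (triangles) and all 17675 protein-coding genes on the same autosomes (squares). The intervals of the zinc finger genes lie above all genes for H3K9me3, TRIM28 and SETDB1 in shARID1A cells, for SETDB1 in shCtrl cells and for H3K9me3 in unmodified cells, and the chromosome 19 genes have few ARID1A peaks.

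Strong input peaks of shARID1A cells were in a larger share of the zinc finger genes than of all genes. A strong SETDB1 peak was in 23 zinc finger genes (10.1%, interval 6.53 to 14.8%), against 3.98% of all genes, a strong TRIM28 peak in 19 (8.37%, interval 5.11 to 12.8%), against 4.2%, and a strong H3K9me3 peak in 59 (26.0%, interval 20.4 to 32.2%), against 18.6%. In the IgG lists strong SETDB1 was in 68 (30%, interval 24.1 to 36.4%) against 20.6%, but strong H3K9me3 in 120 (52.9%, interval 46.1 to 59.5%) against 50.2% and strong TRIM28 in 29 (12.8%, interval 8.73 to 17.8%) against 11%, intervals that held the share of all genes. In input peaks per Mb, strong SETDB1 stood at 2.38 against 0.517 and strong TRIM28 at 2.29 against 0.605. In shCtrl cells strong SETDB1 peaks were in 113 zinc finger genes (49.8%) against 45.4% (IgG list 157, 69.2% against 59.7%), strong peaks of the library labelled H3K9me3 in 19 (8.37%) against 12.8%, and no zinc finger gene held a strong TRIM28 peak, which 0.0396% of all genes did, or a strong ARID1A peak (background 0.0905%). In unmodified cells 2 zinc finger genes held a strong ARID1A peak (background 2.17%) and none a strong TRIM28 peak (background 0.0226%) or H3K9me3 peak (background 0.0113%). In the IgG lists strong ARID1A was in 23 zinc finger genes in shCtrl cells (background 8.2%) and 3 in unmodified cells (background 2.18%). Of the 25 strong shARID1A SETDB1 peaks, 23 overlapped an input peak of another library, as did 12 of the 24 strong shARID1A TRIM28 peaks. These overlaps were counted in zinc finger genes only, so they cannot be set against all genes.

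The chromosome 19 zinc finger genes, the largest group of such genes, stood well below those on the other autosomes in the input lists of several libraries. Among these were both ARID1A libraries, the library labelled shCtrl H3K9me3, shARID1A SETDB1 and shCtrl TRIM28. The library labelled shCtrl H3K9me3 was listed in 28 of 240 genes there (11.7%), beside 45.4% of the zinc finger genes elsewhere. shARID1A SETDB1 was listed in 73 (30.4%) beside 56.4% elsewhere, and shCtrl TRIM28 in 62 (25.8%) beside 47.1%. On chromosome 19, 2 genes (0.833%) had an unmodified ARID1A peak and 42 (17.5%) a shCtrl ARID1A peak, beside 26.0% and 56.4% of the zinc finger genes elsewhere. shARID1A TRIM28 was listed in 82.9% of the chromosome 19 genes beside 90.3% elsewhere, and unmodified H3K9me3 in 14.2% beside 24.2%. The chromosome 19 windows covered 7.32 Mb in all, less per gene than the 10.5 Mb of the 227 genes elsewhere. In input peaks per Mb, shARID1A TRIM28 had 125 elsewhere and 112 on chromosome 19, and unmodified ARID1A had 14.6 elsewhere and 0.273 on chromosome 19. Against IgG, shCtrl TRIM28 was in 81.7% on chromosome 19 beside 86.3% elsewhere. Unmodified H3K9me3 was there in 35.4% beside 40.5%, but at 19.9 peaks per Mb beside 18.7. Still lower on chromosome 19 against IgG were shARID1A SETDB1 (67.5% beside 93.4%), shCtrl ARID1A (58.3% beside 86.8%) and unmodified ARID1A (10% beside 40.1%).

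Between shARID1A and shCtrl cells, TRIM28 peaks were listed in more zinc finger genes in shARID1A cells, H3K9me3 peaks in more, and SETDB1 peaks in fewer. For TRIM28, 101 genes held a peak in shARID1A cells only, 104 in both states and 3 in shCtrl cells only, a difference of 43.2 percentage points (interval 38.3 to 45.3), beside 30.0 points over all genes. For H3K9me3, 63 genes held a peak in shARID1A cells only, 79 in both and 24 in shCtrl cells only, a difference of 17.2 points (interval 9.04 to 24.1), beside -1.78 points over all genes. With unmodified cells in place of shCtrl cells the H3K9me3 difference was 38.3 points, beside 34.0 over all genes, with 95 genes in shARID1A cells only and 8 in unmodified cells only. For SETDB1, 24 genes held a peak in shARID1A cells only, 104 in both and 52 in shCtrl cells only, a difference of -12.3 points (interval -19.2 to -4.52), beside -14.7 points over all genes.

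The lists differ in length, which moves these counts: the shARID1A TRIM28 list held 203714 peaks and the shCtrl TRIM28 list 70447. The 10000 highest peaks of each list were taken in order of deposited q, then p, then fold. With these, SETDB1 was in 78 zinc finger genes in shARID1A cells (34.4%, background 21.1%) and 47 in shCtrl cells (20.7%, background 19%). The difference thus turned to 13.7 points. On the same basis TRIM28 was in 57 in shARID1A cells (background 17.3%) and 29 in shCtrl cells (background 14.9%), a difference of 12.3 points, and H3K9me3 in 53 (background 15.8%) and 24 (background 16.5%). In unmodified cells H3K9me3 was then in 50 (background 13.8%). The H3K9me3 difference, shARID1A minus unmodified, was thus 1.32 points (interval -5.77 to 8.28), beside 2 over all genes. Among the 10000 highest IgG peaks H3K9me3 was in 59 in both of these states (background 22.7% and 15.3%). In the lists against IgG, SETDB1 was in 212 zinc finger genes in shARID1A cells (background 85.4%) and 189 in shCtrl cells (background 73.2%), which also turned the difference, to 10.1 points. TRIM28 there was in 214 (background 85%) and 196 (background 78.1%), a difference of 7.93 points, and H3K9me3 in 217 (background 86.7%) and 192 (background 79.9%). The part of unlike scaling and list length in these differences was not tested.

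**Figure D3:**
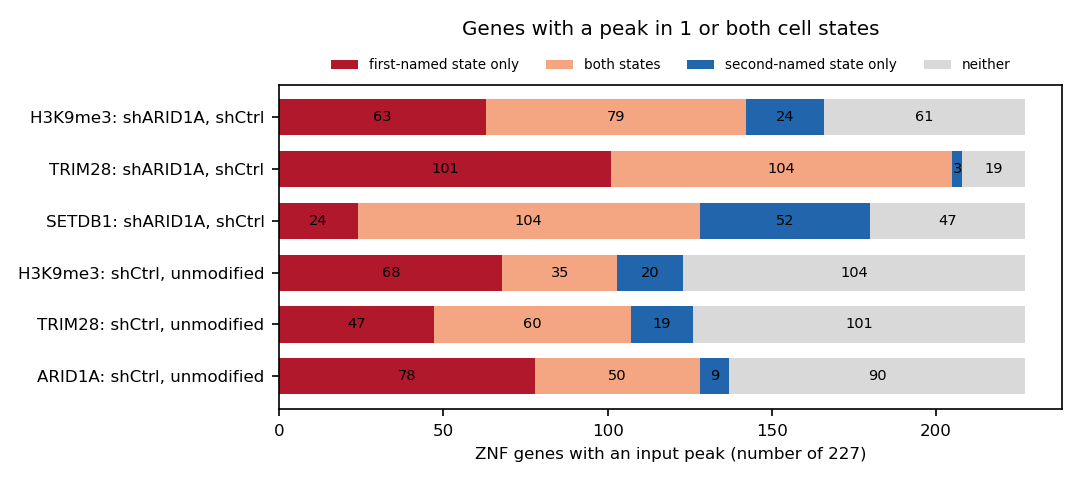
Number of the 227 zinc finger genes with an input peak in the first-named cell state only, in both states, in the second-named state only and in neither, for 6 comparisons of cell states. TRIM28 has 101 genes in shARID1A cells only and 3 in shCtrl cells only.

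Few changes of listing joined a strong peak in 1 state with no peak of either list in the other. Only for H3K9me3 was there a zinc finger gene with a strong peak in shARID1A cells and no peak in either shCtrl list, and this was 1 gene, ZNF658, with a fold of 5.16 at 1600 bp after its annotated start. No zinc finger gene had a strong shCtrl peak of H3K9me3, TRIM28 or SETDB1 and none in both shARID1A lists, and none had a strong shARID1A TRIM28 or SETDB1 peak with none in both shCtrl lists. The IgG lists, which held up to 314688 peaks, covered most of the zinc finger genes, so a gene with no peak in either list was rare. Such changes were counted in zinc finger genes only, so they cannot be set against all genes.

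At single sites the 2 states overlapped little. Of the 268 shARID1A SETDB1 peaks in zinc finger genes, 64 (23.9%) overlapped a shCtrl SETDB1 peak, against 9.12% of those in all genes, and 14.1% of the 439 shCtrl SETDB1 peaks were met in return, against 4.47%. Of the 321 shCtrl TRIM28 peaks, 42 (13.1%) were met by a shARID1A TRIM28 peak, against 4.96%, and 3.21% of the 1310 shARID1A TRIM28 peaks were met in return, against 1.88%. For H3K9me3, 17 of 394 shARID1A peaks (4.31%) overlapped one of the library labelled shCtrl H3K9me3, against 6.65%. In return, 4.5% of the 378 peaks of that library were met, against 3.31%. Overlap between states was thus above that of all genes in both directions for SETDB1 and TRIM28, and above it in 1 direction and below it in the other for H3K9me3. With unmodified H3K9me3 in place of shCtrl, 12 of its 119 peaks (10.1%) were met by shARID1A H3K9me3, against 4.42% over all genes.

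Within shARID1A cells, peaks of the 3 antibodies coincided more often in the zinc finger genes than in all genes, though their lists share control libraries. Of 394 H3K9me3 peaks, 119 (30.2%) overlapped a TRIM28 peak, against 18.3%, and 61 (15.5%) overlapped a SETDB1 peak, against 7.57%. Of 268 SETDB1 peaks, 80 (29.9%) overlapped a TRIM28 peak, against 17.3%. In the IgG lists the contrast was smaller for H3K9me3 peaks at SETDB1, at 21.9% against 20.3%. H3K9me3 peaks at TRIM28 stood there at 25.6% against 19%, and SETDB1 peaks at TRIM28 at 27.8% against 19.2%. In shCtrl cells 36 of 321 TRIM28 peaks (11.2%) overlapped a SETDB1 peak, against 7.48%. SETDB1 met other shCtrl peaks of the input lists no more often than in all genes. Of the 378 peaks of the library labelled H3K9me3, 19.8% overlapped SETDB1, against 20.1%, and 10.4% of the 470 ARID1A peaks did, against 11.1%. In return 17.3% and 10.7% of the 439 SETDB1 peaks were met, against 24.4% and 16.5%. Against IgG the first 2 shares were above all genes, at 16.8% against 15.2% for the library labelled H3K9me3 and 13.9% against 10.8% for ARID1A. In return 23.7% and 28.5% of the SETDB1 peaks were met there, against 30% and 31.1%. TRIM28 peaks were themselves denser in the zinc finger genes in shARID1A cells, as given above. In unmodified cells 18 of 208 TRIM28 peaks (8.65%) overlapped an H3K9me3 peak, against 2.35%.

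Between shCtrl and unmodified cells, peaks of all 3 shared antibodies were listed in more zinc finger genes in shCtrl cells, as in all genes. ARID1A peaks were in 128 genes in shCtrl cells and 59 in unmodified cells, a difference of 30.4 points (interval 24 to 34.6), beside 28.3 points over all genes, and 50 genes held one in both states. TRIM28 peaks differed by 12.3 points, beside 13.0 over all genes, and H3K9me3 peaks by 21.1 points, beside 35.8 over all genes. Among the 10000 highest peaks of each list, H3K9me3 was in 24 zinc finger genes in shCtrl cells and 50 in unmodified cells (background 13.8%), which turned the difference to -11.5 points. TRIM28 turned to -4.85 points, with 29 in shCtrl cells and 40 in unmodified cells (background 14.9%), and ARID1A was in 31 (background 17.9%) and 20 (background 14%). In the IgG lists ARID1A was in 197 in shCtrl cells (background 85.6%) and 91 in unmodified cells (background 47.1%), and unmodified TRIM28 and H3K9me3 were in 139 (background 51.9%) and 92 (background 28.2%). At strong input peaks ARID1A turned to -0.881 points, beside -2.08 over all genes, with 0 zinc finger genes in shCtrl cells and 2 in unmodified cells. Strong peaks of the IgG lists were in 23 and 3 genes. That was a difference of 8.81 points (interval 4.55 to 10.9), beside 6.02 over all genes. The part of unlike background fragments and list length in the differences between shCtrl and unmodified cells was not tested.

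Position along the gene was taken in the direction of transcription for the 188 genes with a strand. The body was cut into 3 equal parts. In the RefSeq promoter table a start can be that of one transcript among several, so a summit may lie upstream of it and still inside the body. In unmodified cells 38 of 84 H3K9me3 summits inside zinc finger genes (45.2%, interval 34.3 to 56.5%) lay in the last part of the body, against 30.8% of those in all genes. For unmodified TRIM28 it was 59 of 145 (40.7%, interval 32.6 to 49.2%), against 31.6%, for shARID1A SETDB1 71 of 181 (39.2%, interval 32.1 to 46.7%), against 30.6%, and for shARID1A H3K9me3 101 of 271 (37.3%, interval 31.5 to 43.3%), against 30.8%. These 4 intervals lay above the share of all genes. shCtrl TRIM28 had 36.2% against 33.9%, shCtrl SETDB1 33.9% against 28.1%, shARID1A TRIM28 32.1% against 32.0% and shCtrl H3K9me3 30.2% against 32.2%. ARID1A summits were in the last part in 25.7% of cases in shCtrl cells and 27.5% in unmodified cells, against 30.2% and 26.9%. In the lists against IgG the share in the last part was 41.9% against 33.1% for unmodified H3K9me3 and 39.7% against 33.2% for unmodified TRIM28. There shARID1A H3K9me3 had 30.6% against 30.6% and shARID1A SETDB1 29.3% against 29.8%, so that the difference from all genes was seen in both lists for unmodified cells and in the input list alone for shARID1A cells. Among strong input peaks, 7 of 13 shARID1A SETDB1 summits (53.8%, interval 25.1 to 80.8%) lay in the last part, against 26.1%, and 51 of 134 shCtrl SETDB1 summits (38.1%, interval 29.8 to 46.8%), against 29%. Strong shARID1A TRIM28 summits went the other way, with 3 of 18 (16.7%) against 24.2%, as did strong shARID1A SETDB1 summits of the IgG list, with 6 of 36 (16.7%) against 21.4%.

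In genes of 10 to 50 kb (121 zinc finger genes and 5516 in all with a strand), the stretch 5 to 1 kb before the end was denser in zinc finger genes than in all genes for most libraries. Unmodified TRIM28 summits numbered 39.3 per Mb there in zinc finger genes, against 10.0 in all genes, and unmodified H3K9me3 summits 20.7, against 3.04, the last from 10 summits. Unmodified H3K9me3 was also denser at the start (16.5 against 2.81) and in the middle (15.3 against 3.11), and in the IgG list its middle (31.7) was above the stretch (24.8). Unmodified TRIM28 against IgG kept its highest density in the stretch, at 66.1 against 26.3 in all genes. For shARID1A SETDB1 the stretch had 47.5 per Mb, against 13.2, and the gene middle had 22.3, against 14, while in the IgG list the stretch had 124, against 106. shARID1A H3K9me3 had 39.3 in the stretch and 39.4 in the middle, against 17.8 and 18.2. shCtrl SETDB1 had 47.5, against 26.2, and shCtrl TRIM28 43.4, against 25.4, while the library labelled shCtrl H3K9me3 had 18.6, against 27.8. shARID1A TRIM28 was raised along the whole gene, with 145 per Mb in that stretch against 62.8 and 159 in the middle against 69.1.

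**Figure D4:**
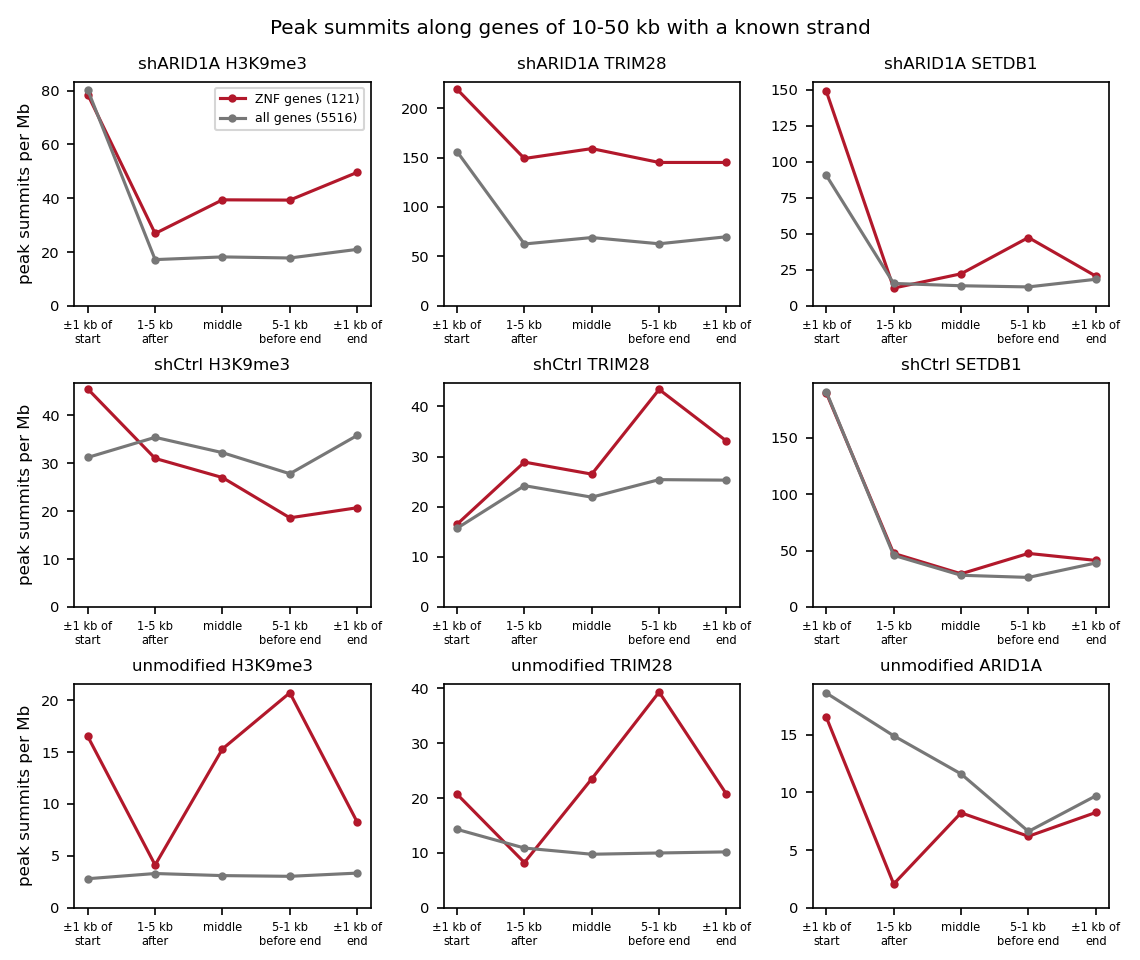
Peak summits per Mb in 5 segments along genes of 10 to 50 kb, ordered from start to end, for 121 zinc finger genes (red) and 5516 genes in all (grey) in 9 libraries. The segment 5 to 1 kb before the end carries the maximum of the zinc finger genes for TRIM28 and H3K9me3 in unmodified cells (39.3 and, from 10 summits, 20.7 per Mb) in these input lists, and a second maximum for shARID1A SETDB1 (47.5).

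Peaks within 1 kb of the start were found in 72 of 188 zinc finger genes for shARID1A TRIM28 (38.3%), against 26.0% of all genes, and in 45 for shARID1A SETDB1 (23.9%), against 16.0%. They were found in 35 for shARID1A H3K9me3 (18.6%), against 13.4%, in 66 for shCtrl SETDB1 (35.1%), against 29.3%, and in 47 for shCtrl ARID1A (25.0%), against 20.7%. shCtrl TRIM28 had 5 such genes (2.66%), against 3.09%, but 39 (20.7%), against 16.3%, in the IgG list. The library labelled shCtrl H3K9me3 had 14 (7.45%), against 6.15%. Unmodified H3K9me3 had 6 (3.19%), against 0.683%, unmodified TRIM28 7 (3.72%), against 2.83%, and unmodified ARID1A 8 (4.26%), against 3.45%.

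Peaks of several libraries met at a small number of sites. Merging the input peaks of all 10 libraries in zinc finger genes gave 3031 sites, of which 20 (0.66%) held peaks of 6 or more libraries, against 393 of 271944 sites (0.145%) over all genes. The 20 sites lay in 20 genes and were chosen after their values were seen. They were 896 to 3124 bp wide, none of the 16 with a strand had its middle within 1 kb of the start, and 7 had it in the last 5 kb of the body. shCtrl SETDB1 was at all 20 sites, shARID1A H3K9me3, shARID1A TRIM28 and unmodified TRIM28 at 18 each and shARID1A SETDB1 at 16. The library labelled shCtrl H3K9me3 was at 7, shCtrl TRIM28 at 12, shCtrl ARID1A at 9, unmodified H3K9me3 at 8 and unmodified ARID1A at 6.

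The ZNF23 site (chr16:71447739-71449626), 1085 bp before the gene's end, had folds of 3.04, 3.77 and 5.98 for H3K9me3, TRIM28 and SETDB1 in shARID1A cells, 3.64, 2.57 and 8.51 in shCtrl cells, and 3.0 for TRIM28 and 1.83 for ARID1A in unmodified cells. The ZNF594 site (chr17:5180878-5183573) had 4.04, 3.77 and 9.01 in shARID1A cells, 2.47 for H3K9me3, 8.24 for SETDB1 and 2.63 for ARID1A in shCtrl cells, and 3.27 for H3K9me3 and 2.9 for TRIM28 in unmodified cells. At both sites SETDB1 had the highest fold in shARID1A and in shCtrl cells, but fold also differed between whole lists. The median input folds of H3K9me3, TRIM28 and SETDB1 were 3.15, 2.35 and 2.95 in shARID1A cells and 2.76, 2.6 and 3.48 in shCtrl cells. The ZNF12 site (chr7:6690799-6693870), 3901 bp before the end, had 3.55, 4.21 and 4.44 in shARID1A cells, 2.47, 2.66 and 8.24 in shCtrl cells, and 2.91 for H3K9me3 and 3.0 for TRIM28 in unmodified cells. At the ZNF721 site (chr4:441190-444313) TRIM28 had 3.77 in shARID1A cells, no peak in shCtrl cells and 3.6 in unmodified cells. The ZNF862 site (chr7:149854360-149856264) went the other way, with no peak in shARID1A cells, 7.13 for the library labelled H3K9me3 in shCtrl cells and 3.83 for ARID1A in unmodified cells.

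**Figure D5:**
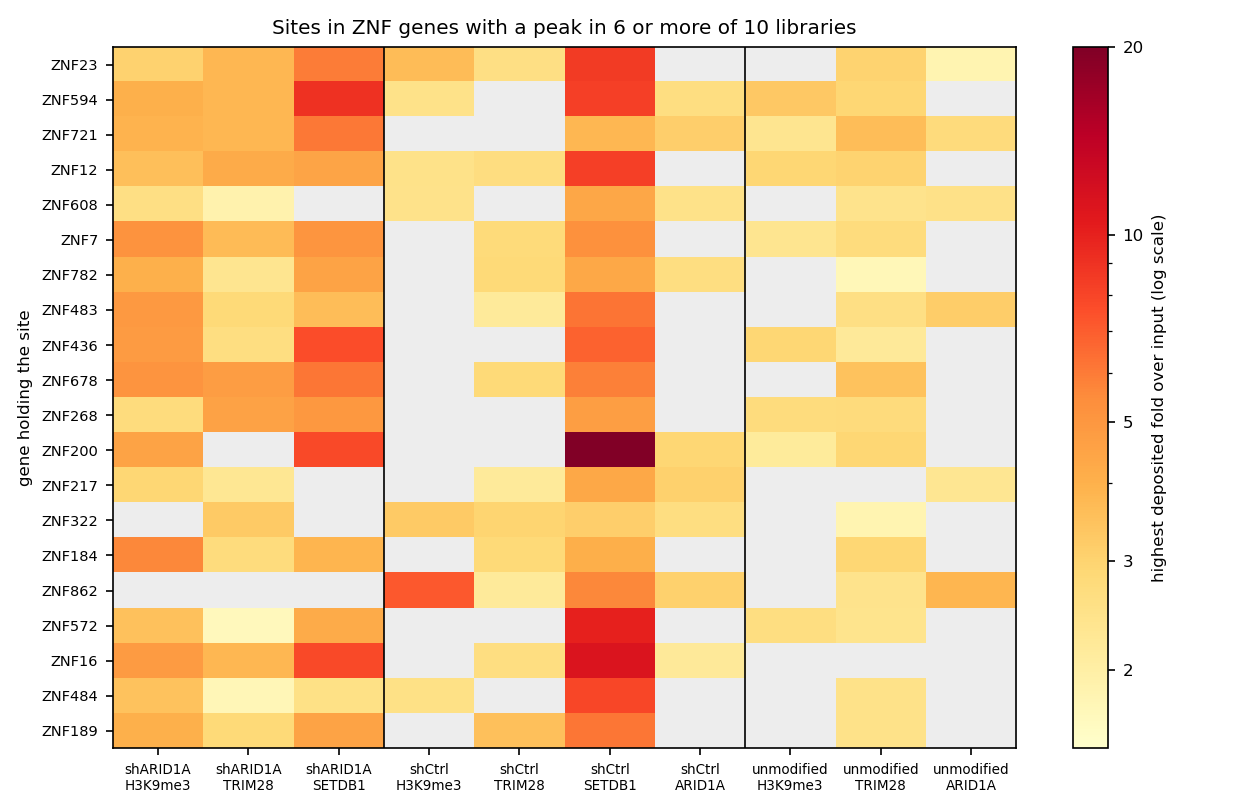
Highest deposited fold over input (colour, log scale; grey where no peak is listed) at the 20 sites in zinc finger genes with peaks in 6 or more of the 10 libraries, 1 row per site named by its gene. SETDB1 in shCtrl cells has a peak at all 20, with 19.7 at ZNF200, and the library labelled shCtrl H3K9me3 has a peak at 7.

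The 3 zinc finger genes with the highest folds of each library, among peaks also listed against IgG, came from several places in the gene. In shARID1A H3K9me3 they were ZNF34 (13.7), ZNF670 (13.0, 105 bp before its start) and ZNF341 (9.59), in shARID1A SETDB1 ZNF594 (9.01), ZNF16 and ZNF200 (7.78 each), and in shARID1A TRIM28 ZNF662 (5.18), ZNF7 (5.01) and ZNF594 (4.87). In shCtrl SETDB1 they were ZNF200 (19.7, 53 fragments at the summit over a background of 1.42), ZNF609 (14.6, 196 bp before its start) and ZNF174 (14.5, 541 bp before its end). Each of these 3 shCtrl SETDB1 peaks also met a shARID1A H3K9me3 peak. In the library labelled shCtrl H3K9me3 they were ZNF362 (8.31), ZNF608 (7.44) and ZNF862 (7.13), and all 3 peaks overlapped an unmodified ARID1A peak and a shCtrl SETDB1 peak. ZNF217, an amplified transcription factor gene in breast cancer, held one of the sites above, with 2.91 for H3K9me3, 2.28 for TRIM28 and no SETDB1 peak in shARID1A cells. The same site had 4.32 for SETDB1, 3.05 for ARID1A and 2.16 for TRIM28 in shCtrl cells, and 2.3 for ARID1A in unmodified cells.

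In the other 5 libraries the highest folds were at most 5.16. In shCtrl ARID1A they were ZNF292 (5.16), ZNF322 (4.77, 303 bp after its start) and ZNF277 (4.74), and in shCtrl TRIM28 ZNF330 (4.2), ZNF860 (3.99) and ZNF594 (3.79). In unmodified cells they were ZNF704 (5.01), ZNF827 (4.93) and ZNF362 (4.01) for ARID1A, ZNF721 (3.6), ZNF678 (3.45) and ZNF7 (3.4) for TRIM28, and ZNF670 (3.84), ZNF12 (3.77) and ZNF594 (3.27) for H3K9me3. The TRIM28 and H3K9me3 summits of unmodified cells held 14 to 19 fragments, and none of those peaks was strong.

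By cluster, ARID1A and TRIM28 input peaks of shCtrl and unmodified cells were listed in a smaller share of clustered than of solitary zinc finger genes. ARID1A was listed in 42.7% of clustered and 63.2% of solitary genes in shCtrl cells, a difference of -20.6 points (interval -33.6 to -6.49), and in 13.4% and 35.9% in unmodified cells (-22.5 points, interval -33.2 to -10.3). The library labelled shCtrl H3K9me3 was listed in 26.8% of clustered and 59.0% of solitary genes (-32.1 points, interval -44.1 to -18.3). shCtrl TRIM28 was listed in 37.8% and 53.8% (-16 points, interval -29.1 to -1.96) and unmodified TRIM28 in 25.6% and 38.5% (-12.9 points, interval -25.1 to 0.455). Unmodified H3K9me3 had the opposite sign, at 29.3% and 19.7% (9.61 points, interval -2.32 to 21.9), an interval that includes 0. For shARID1A H3K9me3 (62.2% and 64.1%), shARID1A TRIM28 (87.8% and 91.5%), shARID1A SETDB1 (51.2% and 59.0%) and shCtrl SETDB1 (64.6% and 70.9%) the intervals also included 0. In the lists against IgG the intervals included 0 for unmodified ARID1A (-6.64 points, interval -19.9 to 7.23), the library labelled shCtrl H3K9me3 (-10.4, interval -21.7 to 0.309) and shCtrl TRIM28 (-3.03, interval -13.6 to 6.61), while shCtrl ARID1A stood at -13 points (interval -23.7 to -3.36). There shCtrl SETDB1 (-13.3 points, interval -24.5 to -2.66) and shARID1A SETDB1 (-8.78, interval -17.8 to -1.36) lay below 0, and unmodified H3K9me3 was at -1.15 points. Strong shARID1A SETDB1 input peaks went the other way, in 14 of 82 clustered (17.1%) and 7 of 117 solitary genes (5.98%). That difference was 11.1 points (interval 2.25 to 21.1), but for strong peaks of the IgG list it was -6.01 (interval -18.1 to 6.93). Clustered genes had a median length of 19607 bp and solitary ones 29887 bp, and the part of length in these differences was not tested.

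The 5 largest clusters differed from each other in the input lists, whose counts are given here. The shares over all genes are those given above for each library. On chromosome 12 (chr12:132918306-133214832; ZNF605, ZNF26, ZNF84, ZNF140, ZNF891, ZNF10 and ZNF268), 7 of 7 genes held shARID1A TRIM28, with 41 peaks in all, and 4 held shARID1A H3K9me3. There, 0 of 7 held a peak of the library labelled shCtrl H3K9me3 and 1 a shCtrl TRIM28 peak, while 6 held unmodified H3K9me3 and 4 unmodified TRIM28. Against IgG, 7 held H3K9me3 in shARID1A cells, 3 in shCtrl cells and 7 in unmodified cells, and TRIM28 was in 7, 6 and 6. ZNF10, which encodes the protein whose KRAB domain is widely used as a repressor in synthetic biology, lies in this cluster. On chromosome 16 (chr16:30378312-30787205; ZNF48, ZNF771, ZNF768, ZNF747, ZNF764, ZNF688, ZNF785, ZNF689 and ZNF629), no gene of 9 held an input peak of any antibody in unmodified cells (against IgG, 1 held TRIM28 and 2 held ARID1A), while 4 held shARID1A TRIM28, 4 shARID1A SETDB1, 6 shCtrl SETDB1 and 4 shCtrl ARID1A.

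On chromosome 7, the cluster at chr7:63998849-64991036 (ZNF722, ZNF727, ZNF735, ZNF679, ZNF736, ZNF680, ZNF107, ZNF138, ZNF273 and ZNF117) was poor in ARID1A, with 1 of 10 genes in shCtrl cells and 1 in unmodified cells. It held 41 shARID1A TRIM28 peaks in 8 genes and 7 shCtrl TRIM28 peaks in 5 genes. Against IgG the TRIM28 contrast was not seen, with 39 peaks in 7 genes in shARID1A cells and 40 peaks in 8 genes in shCtrl cells. ARID1A was there in 5 of the cluster's genes in shCtrl cells and 5 in unmodified cells. In the other cluster, at chr7:149069641-149497809 (ZNF786, ZNF425, ZNF398, ZNF282, ZNF212, ZNF783, ZNF777 and ZNF746), 7 of 8 genes held shARID1A H3K9me3, 8 shARID1A TRIM28 and 7 shARID1A SETDB1. In shCtrl cells 1 of these 8 held H3K9me3, 1 TRIM28 and 6 SETDB1, and in unmodified cells none held H3K9me3 and 1 held TRIM28. Against IgG all 8 held each of the 3 in shARID1A cells, 7, 8 and 8 held H3K9me3, TRIM28 and SETDB1 in shCtrl cells, and 5 and 4 held H3K9me3 and TRIM28 in unmodified cells. On chromosome 3 (chr3:44431705-44737083; ZNF445, ZNF852, ZNF660, ZNF197, ZNF35, ZNF502 and ZNF501), 7 of 7 genes held shARID1A TRIM28, 6 shCtrl TRIM28 and 2 unmodified TRIM28. Against IgG these counts were 7, 6 and 6. ZNF445, known for its part in keeping genomic imprints, is in this last cluster.

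Peaks reached nearly every zinc finger gene in at least 1 library. A peak was listed against input in all 10 libraries for 14 genes (background 6.86%) and in none for 7 (background 10.3%), which were ZNF80, ZNF879, ZNF311, ZNF853, ZNF679, ZNF735 and ZNF785, and 127 genes held a strong input peak in at least 1 library (background 51.5%). ZNF311 alone had no peak in any of the 20 lists. The 5 genes with most lists, ordered by summed fold, were ZNF469, ZNF16, ZNF704, ZNF503 and ZNF827, and all but ZNF16 were over 100 kb long. ZNF469 had highest folds of 6.28, 3.76 and 3.42 for H3K9me3, TRIM28 and SETDB1 in shARID1A cells, 4.58, 3.1 and 12.7 in shCtrl cells, and 3.17 and 2.29 for H3K9me3 and TRIM28 in unmodified cells. ZNF16, of 20523 bp, had 4.83, 4.24 and 7.78 in shARID1A cells, 2.92, 3.01 and 11.2 in shCtrl cells, and 2.45 and 2.89 in unmodified cells.

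The genes of the TRIM28 pathway itself were looked at beside these targets, as a list of 17: TRIM28, SETDB1, ATF7IP, CBX1, CBX3, CBX5, MORC2, MPHOSPH8, TASOR, PPHLN1, CHD3, HDAC1, HDAC2, DNMT1, UHRF1, SMARCAD1 and SUMO2. In shARID1A cells 16 of the 17 held a TRIM28 peak (74.3% of all genes), 12 a SETDB1 peak (46.2%) and 9 an H3K9me3 peak (49.1%). The shares of all genes in brackets leave out chromosome 19, where TRIM28, DNMT1 and UHRF1 lie. In shCtrl cells 6 held TRIM28 (44.3%), 14 SETDB1 (60.9%), 12 the library labelled H3K9me3 (50.9%) and 9 ARID1A (56.7%), and in unmodified cells 5 held TRIM28 (31.3%), 2 H3K9me3 (15.1%) and 6 ARID1A (28.5%). ATF7IP, the cofactor that stabilises SETDB1, was the only one with a peak in all 10 libraries, with 13.0, 3.8 and 5.43 for H3K9me3, TRIM28 and SETDB1 in shARID1A cells, 2.85, 3.62 and 19.9 in shCtrl cells, and 2.36 and 3.37 for H3K9me3 and TRIM28 in unmodified cells. ATF7IP was also the longest gene of this list, and the part of length was not tested. TRIM28 itself held a TRIM28 peak of 1.82 in shARID1A cells and none in shCtrl or unmodified cells.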

How the data were processed

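HCT116 ChIP-seq peak lists of 10 libraries were used, each called by the authors per library against input and IgG. Bowtie2 2.2.5 and MACS2 2.2.7.1 with builds GRCh38 and hg38 are named in the submitters' processing notes, without options. The deposited fold of each peak is a ratio of pileup to local background, and the deposited −log10 p and −log10 q come from the same call. The deposited score of each peak was not used. Lists reached an unadjusted p of about 0.05. Input lists were the main ones, and an overlap of 1 bp counted. For H3K9me3 and TRIM28 the antibody product differs between protocol and sample characteristics.

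Members and lists were chosen with earlier results of these data known. Of the pathway list, 1 gene is not reported here. Genes came from RefSeq, and strand and start from its promoter table (188 of 227 genes). Summits gave positions. Counts of finger and KRAB motifs, planned from proteins, were not made because no protein table was used here. Fragments were recovered from fold and p with a tolerance of 0.003 in pileup units, for 94.1 to 100% of peaks in zinc finger genes per library. Scripts were tested on simulated peaks. Named genes were, per library, the 3 with the highest fold among input peaks also listed against IgG, up to 4 per direction with a strong peak in 1 of shARID1A and shCtrl and none in the other, the 5 with peaks in most input lists, and the members of the 5 largest clusters. Other genes were named after their values were seen. Alternatives were the IgG lists, peaks listed against both controls, q of at most 0.05, the 10000 highest peaks, no extension, 50% overlap, genes of 10 to 50 kb and a cluster gap of 500 kb. The 10000 highest peaks were ranked by q, then p, then fold. Unmodified cells in place of shCtrl cells were added after seeing the data. Python 3.11.15, pandas 2.3.3 and scipy 1.17.1 were used.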

Additional observations from a re-analysis of the deposited data

How the results depend on the processing

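No paired analysis was possible because each cell state and antibody had 1 library and the labels give no replicate numbers. No extension, 50% overlap and peaks in both controls, tried on the 6 differences between cell states, and a gap of 500 kb, tried on clustered minus solitary, left those values within their intervals and with their sign. Peaks in both controls moved the share of zinc finger genes over that of all genes to 2.13 for unmodified H3K9me3 and 1.44 for unmodified TRIM28. Of 108 alternative values, 66 stayed within the interval, 37 moved beyond it and 5 turned, and the cause was not tested.

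Among the 10000 highest peaks of each list, 3 differences turned, to 13.7 points for SETDB1 (shARID1A minus shCtrl) and, for shCtrl minus unmodified, -11.5 for H3K9me3 and -4.85 for TRIM28. There TRIM28 (shARID1A minus shCtrl) was 12.3 points and ARID1A (shCtrl minus unmodified) 4.85, and the share of zinc finger genes over that of all genes became 1.48, 1.45 and 1.62 for shARID1A H3K9me3, TRIM28 and SETDB1, 0.64, 0.86 and 0.762 for shCtrl H3K9me3, TRIM28 and ARID1A, and 0.628 for unmodified ARID1A. In genes of 10 to 50 kb this share became 1.37 for shARID1A SETDB1, 2.71 for unmodified H3K9me3 and 1.46 for unmodified TRIM28.

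In the IgG lists SETDB1 (shARID1A minus shCtrl) turned to 10.1 points and TRIM28 was 7.93. For shCtrl minus unmodified, H3K9me3 was 44.1, TRIM28 25.1 and ARID1A 46.7. The share over all genes became 1.1 and 1.11 for shARID1A H3K9me3 and TRIM28 and 1.06 for shCtrl H3K9me3. The last of 3 equal parts of the body held 30.6%, 26.5% and 29.3% of shARID1A H3K9me3, TRIM28 and SETDB1 summits. Clustered minus solitary was -10.4 points for shCtrl H3K9me3 and -6.64 for unmodified ARID1A.

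Strong peaks of the IgG lists gave 8.81 points for ARID1A (shCtrl minus unmodified). With strong input peaks only, that difference turned to -0.881 points. SETDB1 and TRIM28 (shARID1A minus shCtrl) were -39.6 and 8.37, and H3K9me3 (shCtrl minus unmodified) 8.37. The share over all genes became 2.55 and 1.99 for shARID1A SETDB1 and TRIM28, 0.652 for shCtrl H3K9me3 and 0.407 for unmodified ARID1A. The last part held 29.4%, 16.7% and 53.8% of strong shARID1A H3K9me3, TRIM28 and SETDB1 summits and 14.3% of strong shCtrl H3K9me3 summits. With unmodified in place of shCtrl cells, shARID1A H3K9me3 and TRIM28 differed by 38.3 and 55.5 points. Summits of 5 to 13 fragments limit single peaks.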
